A study of Mus musculus with 16 samples.

Results

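This account covers the loss of YAP and TAZ from the brain endothelium of mice that were operated on but had no stroke. It rests on 8 of the 16 libraries of the series, namely 4 of CTRL sham and 4 of YT-iKO sham, chosen by their labels and compared across 31085 genes. Each library holds RNA of brain endothelial cells (bECs), enriched with CD31 beads and then gated on live cells with CD31 and without CD45, from brains pooled over several mice. Both sexes were used in the study. Brains were taken 72 h after sham surgery, an operation that reached the left carotid without blocking it. YT-iKO mice carried Pdgfb-iCreER-eGFP, an inducible Cre recombinase under the promoter of Pdgfb, a growth factor gene of endothelial cells, and floxed alleles of Yap (gene Yap1) and Taz (gene Wwtr1). CTRL littermates carried the floxed alleles without the Cre transgene, and both genotypes received tamoxifen before surgery. The other 8 libraries, 4 of CTRL and 4 of YT-iKO, came from mice with middle cerebral artery occlusion (MCAo) for 30 min. They serve here as separate libraries in which the same genotype difference can be read. The pool is the unit of replication, and the sexes of the mice in each pool are not given.

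YAP and TAZ are coactivators without a DNA-binding domain of their own. They enter the nucleus when the kinases of the Hippo pathway, LATS1 and LATS2, are inactive, and there they act mainly through TEAD transcription factors. In endothelial cells they are known for their part in the sprouting of vessels during development and in the response to shear stress and to stiffness. The blood-brain barrier is the property of brain capillaries that keeps plasma out of the tissue. It rests on tight junctions, on few caveolae, and on carriers that move selected nutrients across the cell.

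A gene is called here when its adjusted p in edgeR's quasi-likelihood test was under 0.1. The 8 libraries held 11424904 to 22464276 counts. YT-iKO sham replicate 3 stood apart. Receptor genes for smell, pheromones and taste, 1457 in number and not used by bECs, took 2783 CPM (counts scaled to a fixed library total) in it and 751 to 1217 CPM in the other 7, and its scaling factor over all genes was 1.36 against 0.92 to 1.08. Over all genes tested the median log2 fold change was 0.11, but it was -0.13 for the 9132 genes whose mean reached 10 CPM (abundant genes). A second fit was therefore made on those 9132 genes with scaling factors of their own, which lay between 0.97 and 1.05 in the 8 libraries and brought the median log2 fold change to 0.01. It was chosen after the data were seen. CPM values and fold changes below are on the scale of this second fit unless the fit on all genes is named. Without YT-iKO sham replicate 3, 24 genes were called in place of 30 in the fit on all genes, and 179 in place of 223 in the second fit. Endothelial markers summed to 16725 to 18021 CPM in CTRL sham and 13664 to 16435 CPM in YT-iKO sham. All 10 of them were above 10 CPM, and 1, Slco1a4, passed the test. Pericyte markers, of which 9 of 10 were above 10 CPM, summed to 822 to 1065 CPM in CTRL sham and 669 to 962 CPM in YT-iKO sham with none called. Of the markers of astrocytes, 2 of 10 were above 10 CPM, of neurons 2 of 11, of microglia and macrophages 1 of 13 and of lymphocytes 0 of 9. The summed neuron markers were 47.7 to 61.9 CPM in CTRL sham and 54.2, 60.4, 140.1 and 92.6 CPM in YT-iKO sham replicates 1 to 4. Summed markers of smooth muscle cells, fibroblasts, oligodendrocytes, lymphocytes, monocytes and neutrophils, and choroid plexus and ependyma were likewise above the CTRL range in YT-iKO sham replicates 3 and 4. Those of microglia and macrophages and of astrocytes were above it in replicate 3, those of red cells in replicates 2 and 3, and those of smooth muscle cells in replicate 2 as well. The part of these differences in the results below was not tested. Fewer cells of a type and less RNA per cell cannot be told apart in such bulk samples.

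Xist, the transcript of the inactive X chromosome, was above 500 CPM in CTRL sham replicates 3 and 4 and in YT-iKO sham replicates 1 and 3, and below 5 CPM in the other 4 sham libraries, so that each genotype held 2 libraries of each kind. With log2 Xist CPM as a covariate, 27 genes were called in the fit on all genes and 208 in the second.

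Wwtr1 and Yap1 were lower in each YT-iKO library than in each CTRL library, and neither was lost. Wwtr1, which encodes TAZ (ENSMUSG00000027803, chromosome 3), read 263, 258, 264 and 252 CPM in CTRL sham replicates 1 to 4 and 70.3, 94.7, 63.3 and 79.96 CPM in YT-iKO sham replicates 1 to 4. Yap1 (ENSMUSG00000053110, chromosome 9) read 109.9, 110.0, 106 and 112 CPM in CTRL sham and 52.5, 58.4, 54.3 and 48.2 CPM in YT-iKO sham. TAZ message thus stood at 29.8% and YAP message at 48.7% of the CTRL level, with no overlap between the groups. In the fit on all genes, the log2 fold change was -1.88 for Wwtr1 (SE 0.28, edgeR adjusted p = 0.00381) and -1.18 for Yap1 (SE 0.22, edgeR adjusted p = 0.0371). An exact two-sided permutation test over the 70 assignments of the 8 libraries gave p = 0.0286 for each gene, the smallest it can give. Counts per gene do not show which exons the remaining reads came from. The call of Yap1 held when any 1 of 11 libraries was left out and was lost, at adjusted p values from 0.118 to 0.241, without any 1 of the 4 CTRL sham libraries or YT-iKO sham replicate 4. In the second fit both genes were called whichever of the 16 libraries was left out.

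In the fit on all genes, 28 genes were lower in YT-iKO sham, 0.0901% of the 31085 tested, and 2 were higher, 0.00643%. The 28 log2 fold changes in that fit ran from -2.19 for F5 to -1.16 for Ddah1. In order of size the lower genes were F5, Apod, Amotl2, Tlcd3b, Wwtr1, Hrct1, Cp, Scarf2, Edn1, Vash1, Spaar, Cyp2e1, Slc38a5, Ang, Rflnb, Rnase4, Nanos1, Edn3, Ndnf, Gm14066, Lancl3, Angpt2, Slc16a4, Slc16a1, Serpinb6b, Kank4, Yap1 and Ddah1. The higher genes were Rpl3-ps1 and Ppm1j. Calls of 14 of the 30 held with each of the 16 libraries left out in turn, among them those of F5, Apod, Amotl2, Wwtr1, Cp, Vash1, Spaar, Rnase4 and Edn3.

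In the second fit, 187 of the 9132 abundant genes were lower, 2.05%, and 36 were higher, 0.394%. They include 26 of the 30 genes above, and the other 4 (Scarf2, Ang, Gm14066 and Ppm1j) had a mean under 10 CPM over the 16 libraries and were not tested there. The median log2 fold change was -0.55 for the 187 lower genes and 0.54 for the 36 higher ones, and 28 of the lower and 3 of the higher genes differed by at least 2-fold. With 1 library left out, 125 to 274 genes were called, and 91 of the 223 were called in each of the 16 such fits. The count fell by more than 1.5 times without CTRL sham replicate 1, 2 or 3, to 137, 134 and 125 in that order. The higher genes alone were 14, 14 and 15 in these fits. They were 68 without YT-iKO sham replicate 1 and 98 with DESeq2.

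**Figure D1:**
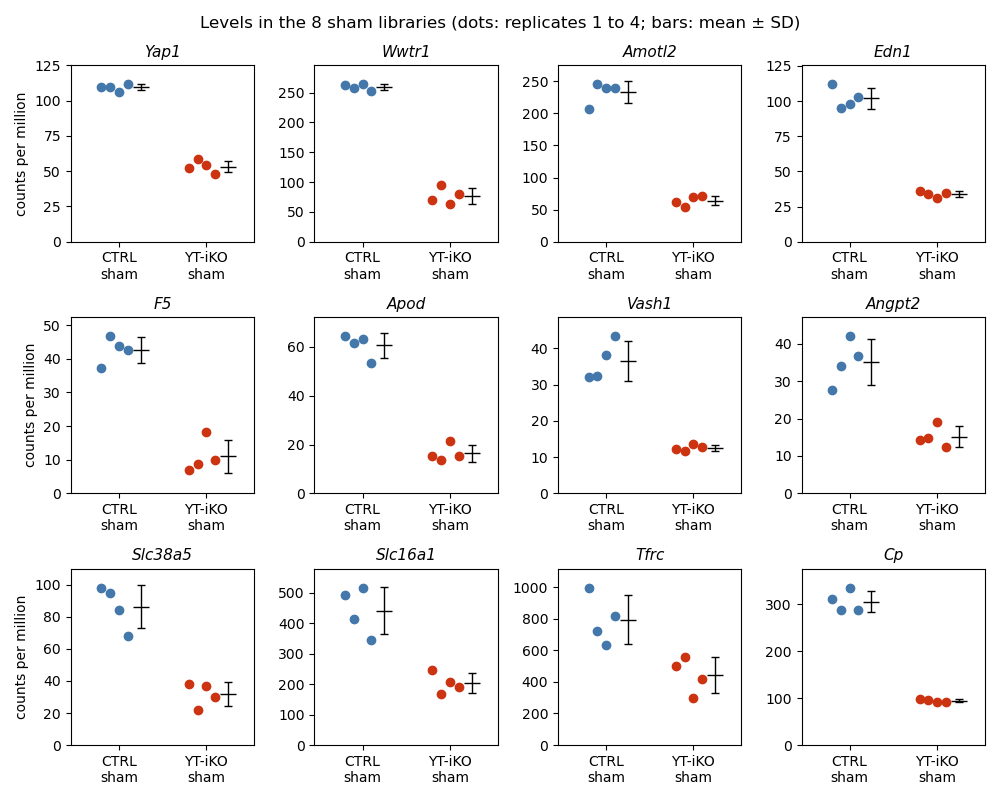
Levels of 12 genes in the 8 sham libraries. The y axis gives CPM on the scale of the second fit and starts at 0; dots are replicates 1 to 4 of CTRL sham (blue) and YT-iKO sham (red), and the black bars are the mean ± SD (n = 4). In each panel the 4 red dots lie below the 4 blue ones.

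Promoters were searched for the letters of the motif that TEAD factors are known to bind. The letters GGAATG, searched on either strand from 250 bases before to 50 after each gene start listed by RefSeq (GRCm38.p6), were in 11 of 31 promoters of the genes called lower in the fit on all genes (26 of 28 genes had a promoter listed), or 35.5%, and in 13.7% of the 21149 promoters of all genes tested that had one. In the second fit they were in 22.2% of 203 promoters of the lower genes, in 13.9% of 36 promoters of the higher genes and in 11.7% of 9235 promoters of all its genes. Wwtr1 and Yap1, the floxed genes themselves, are among the lower genes with a match and were not set aside. These shares are a description with no test, and a match of 6 letters is not a binding site. The stretches below surround the match in promoters of 6 genes called lower, among them the Hippo scaffold Amotl2, the vasoconstrictor Edn1 and the metal-handling enzyme Cp. They run 5′ to 3′ on the strand of the gene and end before its start, with GGAATG or its reverse complement in capitals. In this order they lie at chr9:102717699-102717784, plus strand, chr13:42301229-42301314, plus strand, chr3:19957013-19957098, plus strand, chr1:164151686-164151771, plus strand, chr14:20929215-20929300, plus strand and chr6:141524235-141524320, plus strand, all on GRCm38. Vcl and Slco1c1 were called in the second fit, the others in both.
Amotl2: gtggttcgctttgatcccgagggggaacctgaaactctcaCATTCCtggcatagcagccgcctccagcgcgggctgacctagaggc
Edn1: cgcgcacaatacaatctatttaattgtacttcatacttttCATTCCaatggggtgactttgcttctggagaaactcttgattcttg
Cp: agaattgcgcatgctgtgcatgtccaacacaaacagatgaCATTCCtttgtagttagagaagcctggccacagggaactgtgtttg
F5: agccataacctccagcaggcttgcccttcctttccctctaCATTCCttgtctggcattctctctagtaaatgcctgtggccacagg
Vcl: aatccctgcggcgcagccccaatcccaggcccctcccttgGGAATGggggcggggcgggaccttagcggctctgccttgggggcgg
Slco1c1: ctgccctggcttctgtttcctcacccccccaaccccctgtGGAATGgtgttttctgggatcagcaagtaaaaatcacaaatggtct

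Functions of the endothelium were followed with 41 lists of genes, which share members. Together they held 728 different abundant genes, of which 63 were lower, 8.65%, and 4 were higher. There were 13 lists with no called member. The lists were chosen with earlier results of these data known, so their shares are a description and carry no test. In the fit on all genes the most lower calls in a list were 4, among angiogenic factors, and 3 each among transporters and vasoactive genes. The counts that follow are from the second fit, beside its 2.05% lower over all genes and its median log2 fold change of 0.01.

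**Figure D2:**
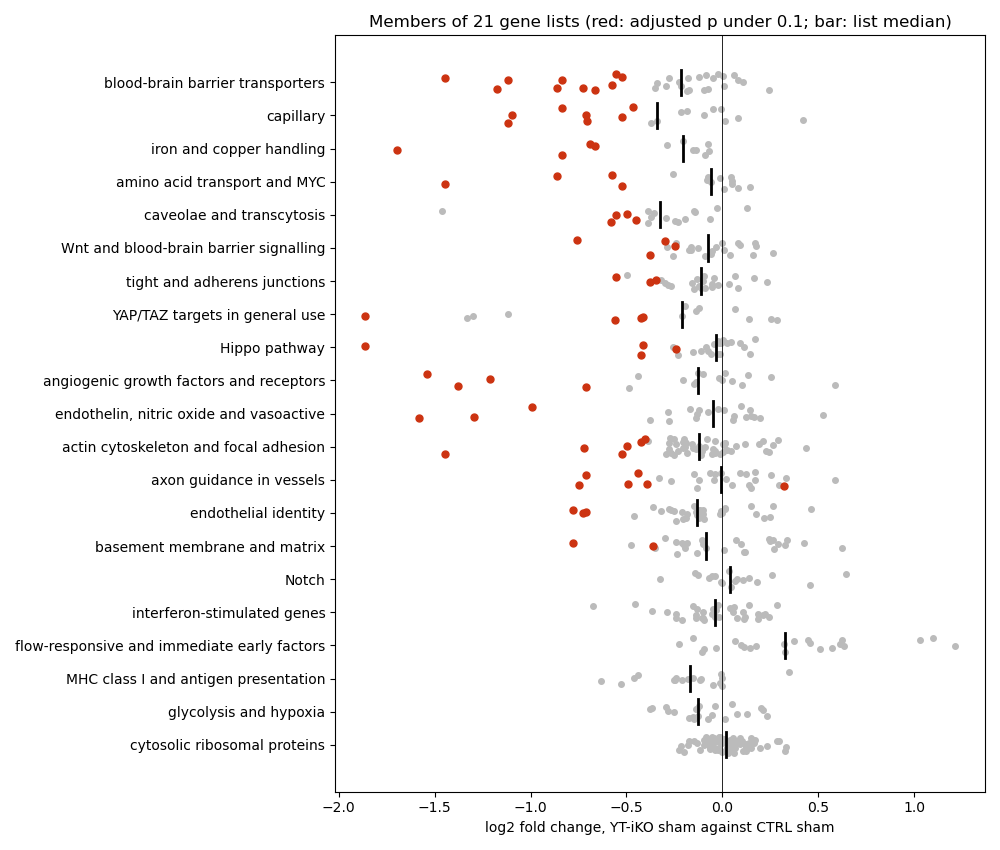
Log2 fold change (x axis, YT-iKO sham against CTRL sham, second fit) of each abundant member of 21 gene lists (y axis). Red dots are genes with an adjusted p under 0.1, grey dots the others, and black bars the list medians; the transporter list holds 10 red dots among 31, and the Notch, interferon, glycolysis and ribosomal protein lists hold none.

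Genes of the Hippo pathway itself and the targets in general use changed in part. Of 24 abundant Hippo pathway genes 4 were lower, at a list median of -0.03, and of 15 general targets 4 were lower, at a median of -0.21. Amotl2, an angiomotin-like scaffold that holds YAP at cell junctions, is in both lists. It read 207, 245, 239 and 240.1 CPM in CTRL sham and 62.3, 54.2, 68.9 and 70.6 CPM in YT-iKO sham, which is 27.5% of the CTRL level (log2 fold change -1.86, SE 0.12, edgeR adjusted p = 1.44e-07). Lats2, a kinase that phosphorylates YAP and TAZ, read 247, 275, 264 and 273 CPM and 187, 201, 206 and 196 CPM in the same order, and its fall was smaller (log2 fold change -0.43, SE 0.08, edgeR adjusted p = 0.0106). The groups did not overlap for either gene. Ptpn14, a phosphatase that binds YAP, fell with a log2 fold change of -0.42 and Wwc2, a scaffold upstream of the LATS kinases, with -0.24. Crim1, a membrane protein that binds BMPs, fell with -0.56. Leaving out CTRL sham replicate 3 left 2 called Hippo genes, as did leaving out YT-iKO sham replicate 4.

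The matricellular genes Ccn1 and Ccn2, the targets most often measured, did not pass the test after sham. Ccn1 read 51.9, 36.2, 23.4 and 17.6 CPM in CTRL sham and 32.9, 4.77, 7.46 and 6.08 CPM in YT-iKO sham (log2 fold change -1.30, SE 0.60, edgeR adjusted p = 0.378). Ccn2 read 16.3, 29.8, 27.8 and 29.4 CPM and 14.9, 7.16, 12.2 and 6.58 CPM (log2 fold change -1.33, SE 0.40, edgeR adjusted p = 0.135). The Ccn2 groups did not overlap. After MCAo both genes were called lower, Ccn1 at -2.07 (edgeR adjusted p = 0.0912) and Ccn2 at -1.38 (edgeR adjusted p = 0.0808). In YT-iKO sham replicate 1 Ccn1 was within the CTRL range, while the other 3 were below it. With that library left out, 2 of the 4 genes of the matricellular list were called lower in place of 0, and 6 general targets in place of 4. In the same library the 23 flow-responsive and immediate early factors summed to 3544 CPM against 2010 to 2680 CPM in the other 7 libraries. None of those 23 was called, although their median log2 fold change was 0.32. The early factor Fos read 37.8, 25.2, 13.6 and 19.3 CPM in CTRL sham and 101, 38.8, 31.7 and 33.1 CPM in YT-iKO sham.

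Vasoactive genes of endothelial origin were among the steepest falls. Of 22 abundant members of the endothelin, nitric oxide and vasoactive list, 3 were lower and none higher, and the median was -0.05. Edn1 encodes endothelin-1, a peptide that contracts vascular smooth muscle. It read 112, 95.3, 97.7 and 103 CPM in CTRL sham and 36.1, 33.9, 31.2 and 34.7 CPM in YT-iKO sham, 33.4% of the CTRL level (log2 fold change -1.58, SE 0.20, edgeR adjusted p = 2.23e-04). Edn3, a second endothelin gene that is also an arterial marker, read 75.2, 90.5, 112 and 87.1 CPM and 36.7, 28.9, 38.4 and 44.6 CPM (-1.30, SE 0.16, edgeR adjusted p = 2.17e-04). Ddah1, whose product breaks down an inhibitor of nitric oxide synthases, read 64.9, 54.7, 60.2 and 62.9 CPM and 25.8, 22.6, 37.2 and 37.1 CPM (-0.99, SE 0.15, edgeR adjusted p = 9.94e-04). The groups did not overlap for any of these 3, and their calls in the second fit held with each of the 16 libraries left out. Nos3, the endothelial nitric oxide synthase, had a log2 fold change of -0.07 (SE 0.11, edgeR adjusted p = 0.818). Trpv4, of the same list, had 0.53 (SE 0.15, edgeR adjusted p = 0.126) and did not pass. Without YT-iKO sham replicate 1, 1 gene of the list was called higher.

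In the list of angiogenic factors and receptors, 4 of 19 abundant genes were lower. Vash1, which encodes vasohibin-1, an inhibitor of angiogenesis that also removes tyrosine from tubulin, read 32.1, 32.3, 38.2 and 43.5 CPM in CTRL sham and 12.2, 11.8, 13.7 and 12.7 CPM in YT-iKO sham (-1.54, SE 0.14, edgeR adjusted p = 9.57e-06). Angpt2, a ligand of the receptor Tek that also marks tip cells, read 27.5, 33.98, 42.1 and 36.7 CPM and 14.3, 14.9, 19.1 and 12.4 CPM (-1.21, SE 0.14, edgeR adjusted p = 1.26e-04). Tek itself was not called (edgeR adjusted p = 0.991). Rnase4 and Ang encode secreted ribonucleases, of which angiogenin (Ang) promotes vessel growth. Rnase4 read 34.2, 29.2, 32.2 and 32.4 CPM and 12.8, 10.1, 15.02 and 11.4 CPM (-1.38, edgeR adjusted p = 9.57e-06), and Ang, in the fit on all genes, 6.83, 6.72, 7.62 and 7.21 CPM and 2.31, 3.71, 1.81 and 1.71 CPM (-1.56, edgeR adjusted p = 0.0529). Both genes overlap on the same strand of chromosome 14, so that their reads may not be told apart. Robo4, an endothelial guidance receptor, read 421, 454, 455 and 462 CPM and 291, 275, 269 and 257 CPM (-0.71, SE 0.07, edgeR adjusted p = 2.68e-05). The count of 4 was the same with each of the 16 libraries left out. The receptor Kdr had a log2 fold change of 0.01 with overlapping groups.

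Nutrient carriers of the blood-brain barrier were the list with the most lower genes. Of 31 abundant members, 10 were lower and none higher, 25 had a negative log2 fold change, and the median was -0.22. The count was 7 to 10 with 1 library left out. Together with the amino acid and the iron and copper lists, which overlap with it, 12 of 50 different genes were lower.

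**Figure D3:**
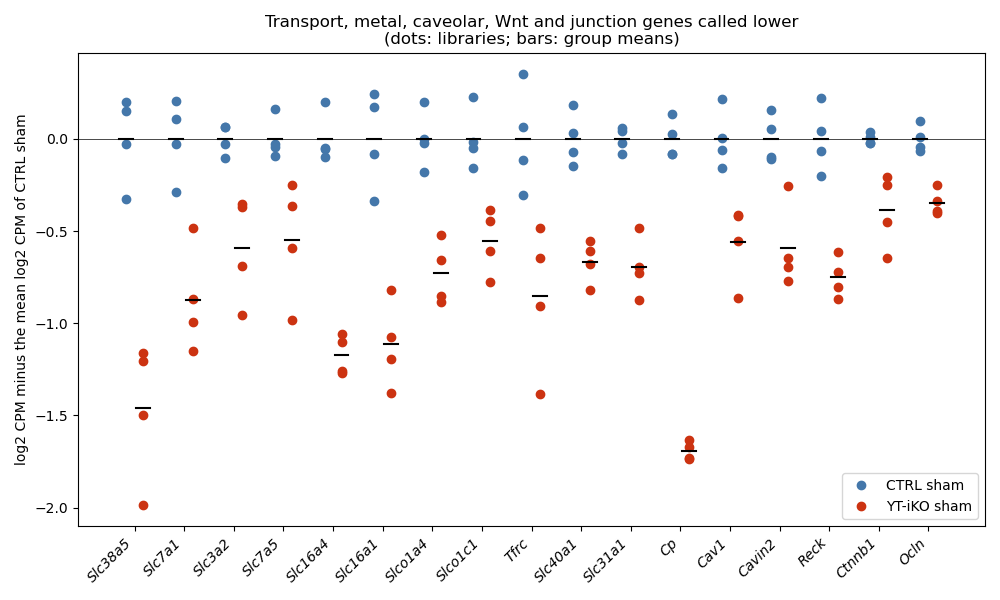
A selection of 17 transport, metal, caveolar, Wnt and junction genes among those called lower in the second fit. The y axis is log2 CPM minus the mean log2 CPM of the 4 CTRL sham libraries; dots are libraries and bars group means (n = 4 each). For each of the 17 genes the 4 red dots lie below the 4 blue dots. The groups did not overlap for 211 of all 223 genes called after sham in that fit. These genes were called on the same libraries, so the separation adds no support to the calls. Its share over all abundant genes was not counted.

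Among genes of amino acid transport, 3 carriers and a heavy chain were lower. Slc38a5, a carrier of glutamine and related amino acids, read 98.3, 95.1, 84.04 and 68.3 CPM in CTRL sham and 38.3, 21.6, 37.1 and 30.2 CPM in YT-iKO sham, 36.8% of the CTRL level (-1.44, SE 0.18, edgeR adjusted p = 2.23e-04). Slc7a1, which takes up arginine and lysine, read 946, 885, 673 and 807 CPM and 588, 412, 371 and 449 CPM (-0.86, SE 0.17, edgeR adjusted p = 0.0111). Both fell in each of the 4 libraries below the lowest CTRL library. Slc3a2 encodes the heavy chain that pairs with Slc7a5, the carrier of large neutral amino acids. Its log2 fold change was -0.57 (edgeR adjusted p = 0.0339), and that of Slc7a5 was -0.53 (edgeR adjusted p = 0.0967), close to the threshold and called in 4 of the 16 fits with a library left out. Of the 15 abundant genes of the amino acid and MYC list these 4 were lower, or 2 without CTRL sham replicate 2. The carriers Slc38a2 (-0.08), Slc38a3 (-0.18) and Slc6a6 (0.24) did not pass the test.

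Carriers of monocarboxylates and organic anions fell as well. Slc16a1 encodes MCT1, which moves lactate and ketone bodies. It read 491, 412, 517 and 345 CPM in CTRL sham and 247, 168, 207 and 191 CPM in YT-iKO sham (-1.12, SE 0.17, edgeR adjusted p = 0.00136). Slc16a4, a less studied relative, read 117, 98.2, 97.6 and 94.9 CPM and 48.7, 42.1, 42.4 and 47.2 CPM (-1.17, SE 0.13, edgeR adjusted p = 3.67e-05). Each stood below 50% of its CTRL level, at 46.1% and 44.3%. Slco1a4, an organic anion carrier and brain endothelial marker, read 3241, 2777, 2813 and 2492 CPM and 1788, 1964, 1526 and 1559 CPM (-0.73, SE 0.12, edgeR adjusted p = 0.0027). Slco1c1, which brings thyroid hormone into the brain, read 1517, 1282, 1254 and 1162 CPM and 995, 953, 757 and 851 CPM (-0.55, SE 0.13, edgeR adjusted p = 0.0337). The groups were apart for all 4 carriers.

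Other carriers that define the barrier did not pass the test. Slc2a1, the glucose carrier, had a log2 fold change of -0.29 (SE 0.19, edgeR adjusted p = 0.541), with YT-iKO values of 2372, 1551, 2659 and 1897 CPM against 2313, 2640, 2845 and 2587 CPM in CTRL. Abcb1a, the drug exporter P-glycoprotein, had -0.10 (SE 0.08, edgeR adjusted p = 0.681). Mfsd2a, the carrier that brings docosahexaenoic acid into the brain as a lysolipid, had -0.37 (SE 0.15, edgeR adjusted p = 0.313). For these 3 the groups overlapped.

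Iron and copper genes were lower at import, export and oxidation. Of 11 abundant members, 4 were lower, all 11 had a negative log2 fold change, and the median was -0.20. The count was 3 or 4 with each of the 16 libraries left out. Tfrc, the transferrin receptor that takes iron from blood, read 997, 723, 634 and 817 CPM in CTRL sham and 501, 559.9, 299.5 and 417 CPM in YT-iKO sham (-0.84, SE 0.21, edgeR adjusted p = 0.0581). Slc40a1 encodes ferroportin, the iron exporter, and read 351, 294, 316 and 278 CPM and 211, 193, 175 and 202 CPM (-0.67, SE 0.12, edgeR adjusted p = 0.00625). Cp encodes ceruloplasmin, a copper enzyme that oxidises iron as it leaves the cell. Its fall to 30.9% of the CTRL level was the deepest of the 4, from 311, 288, 335 and 288 CPM to 98.1, 95.7, 91.7 and 91.4 CPM (-1.70, SE 0.12, edgeR adjusted p = 4.28e-07). Slc31a1, the copper importer, read 109, 108, 103 and 98.9 CPM and 74.9, 57.2, 64.8 and 63.2 CPM (-0.69, SE 0.10, edgeR adjusted p = 0.00132). The call of Tfrc was lost in 5 of the 16 fits with a library left out. Cp is annotated over Hps3 on the other strand.

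Capillary markers had the lowest median of the vessel segment lists. Of 17 abundant capillary genes 7 were lower at a median of -0.34, against 1 of 19 arterial genes (Edn3, median 0.08) and 2 of 18 venous genes (Slc38a5 and Flrt2, median 0.17). The difference between these lists was not tested. The capillary genes were Slc16a1, Serpinb6b, Tfrc, Ivns1abp, Itih5, Slc7a5 and Car4, 3 of which are described above. Serpinb6b, a protease inhibitor of the serpin family, read 34.2, 42.3, 37.1 and 34.4 CPM in CTRL sham and 16.6, 16.5, 18.8 and 17.4 CPM in YT-iKO sham (-1.10, edgeR adjusted p = 1.54e-05). Car4, a carbonic anhydrase on the capillary surface, had a log2 fold change of -0.47 (edgeR adjusted p = 0.0322), and Itih5, a hyaluronan-binding protein, -0.70 (edgeR adjusted p = 0.00221). Without CTRL sham replicate 1 or 2, 4 capillary genes were called in place of 7. The venous count was 1, without Flrt2, in 6 of the 16 fits with a library left out, those without any 1 of the CTRL sham libraries or without YT-iKO sham replicate 1 or 2.

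Of 18 abundant genes of caveolae and transcytosis, 17 had a negative log2 fold change and 4 were lower, at a median of -0.32. Cav1, the main coat protein of caveolae, read 276, 227, 238 and 212 CPM in CTRL sham and 178, 130.4, 162 and 178 CPM in YT-iKO sham (-0.56, SE 0.13, edgeR adjusted p = 0.0339). Cavin2, which bends the caveolar membrane, read 332, 369.9, 396 and 329.7 CPM and 209, 220.0, 298 and 227 CPM (-0.58, SE 0.12, edgeR adjusted p = 0.0225). Both sets of values were apart. Ehd2, which sits at the neck of caveolae, had a log2 fold change of -0.45, and Picalm, an adaptor of clathrin-coated vesicles, -0.50. The count dropped to 1 when CTRL sham replicate 1 was left out, and to 2 when YT-iKO sham replicate 2 was. Plvap, a marker of leaky vessels, was not called, and its CTRL sham values of 21.2, 34.7, 48.2 and 307 CPM overlapped with those of YT-iKO sham, 42.2, 16.2, 37.3 and 53.5 CPM.

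Of 24 abundant genes of the Wnt signal that maintains the barrier, 4 were lower, 3 of them coreceptors, and the list median was -0.07. Reck and Adgra2 form the coreceptor for Wnt7 ligands on brain endothelium, Lrp6 is the general Wnt coreceptor and Ctnnb1 encodes beta-catenin, their effector. Reck read 212, 233, 251 and 284 CPM in CTRL sham and 159, 133, 148 and 139.7 CPM in YT-iKO sham (-0.76, SE 0.11, edgeR adjusted p = 7.05e-04). The log2 fold change was -0.38 for Ctnnb1 (edgeR adjusted p = 0.0444), -0.30 for Adgra2 (edgeR adjusted p = 0.0645) and -0.24 for Lrp6 (edgeR adjusted p = 0.0971). Neither Axin2 (-0.26) nor Lef1, which are targets of the pathway, passed the test. The receptor Fzd4 (-0.13), its partner Tspan12 (-0.29) and the coreceptor Lrp5 (-0.16) did not pass either. The call of Reck held in each of the 16 fits with a library left out. For the list, leaving out CTRL sham replicate 2, 3 or 4 gave a count of 1, as did YT-iKO sham replicate 3, while CTRL sham replicate 1 and YT-iKO sham replicates 2 and 4 each gave 2.

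Of 25 abundant genes of tight and adherens junctions, 20 had a negative log2 fold change and 3 were lower, at a median of -0.11. Ocln, the tight junction protein occludin, read 423, 450.3, 401 and 408 CPM in CTRL sham and 333, 318, 320.2 and 353 CPM in YT-iKO sham (-0.35, SE 0.08, edgeR adjusted p = 0.0289), so that its groups did not overlap. The other 2 were Ctnnb1 and the gap junction gene Gja1 (-0.56, edgeR adjusted p = 0.0786), which astrocytes express too. Cldn5, the claudin of brain vessels, had a log2 fold change of -0.32 (SE 0.16, edgeR adjusted p = 0.425) with overlapping groups, Cdh5 (VE-cadherin) -0.10 and Tjp1 (ZO-1) -0.05. No junction gene was called without CTRL sham replicate 2, and 1 was called when YT-iKO sham replicate 2 or either of CTRL sham replicates 3 and 4 was left out.

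Of 34 abundant endothelial identity genes, 26 had a negative log2 fold change, at a median of -0.13, and 3 were lower: Slco1a4 and Robo4, given above, and Eng. The list summed to 24327 to 25720 CPM in CTRL sham and 19627 to 23604 CPM in YT-iKO sham, with no overlap. Eng encodes endoglin, a coreceptor for BMP ligands, and was also the only called gene of 24 in the BMP and TGF-beta list. It read 1138, 1281, 1178 and 1260 CPM in CTRL sham and 801, 647, 609.6 and 776 CPM in YT-iKO sham, 58.3% of the CTRL level (-0.78, SE 0.12, edgeR adjusted p = 0.00132). Without YT-iKO sham replicate 1, 6 identity genes were called in place of 3 and 3 BMP and TGF-beta genes in place of 1. Pecam1 encodes CD31, by which the cells were sorted, and had a log2 fold change of -0.27 (edgeR adjusted p = 0.283).

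Some genes of the cytoskeleton and of adhesion to the matrix were lower. Of 54 abundant actin and focal adhesion genes, 6 were lower at a median of -0.12, and 5 to 7 with 1 library left out. Rflnb, a gene of the actin cytoskeleton list, read 91.1, 108, 96.1 and 120.0 CPM in CTRL sham and 48.6, 30.8, 28.5 and 44.1 CPM in YT-iKO sham (-1.44, SE 0.15, edgeR adjusted p = 3.36e-05). The focal adhesion protein vinculin (Vcl) had a log2 fold change of -0.42, Lmo7 -0.72, Fhl3 -0.52 and Arhgap29 -0.40. Rflnb thus fell well beyond these 4. Among 29 basement membrane and matrix genes 2 laminin chains were lower. Lama4 read 254, 203, 181 and 218 CPM and 144, 124, 118 and 113 CPM (-0.78, SE 0.14, edgeR adjusted p = 0.0054), and Lamb2 had -0.36. Itga1, an integrin that binds collagen and laminin, was the 1 called gene of 11 integrins (-0.40, edgeR adjusted p = 0.013). In the axon guidance list, 5 of 27 were lower (Plxna4 -0.75, Robo4, Plxna2 -0.49, Epha2 -0.44 and Plxna1 -0.39) and Sema4c was higher (0.32). That count of lower genes was 2 when CTRL sham replicate 3 or 4 was left out, and 3 for CTRL sham replicates 1 and 2 and for YT-iKO sham replicates 1, 2 and 4.

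Of 16 abundant coagulation genes and 10 lipid carriers and tetraspanins, 2 each were lower. F5 encodes coagulation factor V and had the largest fall of the genes called in either fit. It read 37.3, 46.8, 43.7 and 42.8 CPM in CTRL sham and 6.99, 8.82, 18.3 and 9.84 CPM in YT-iKO sham, 25.3% of the CTRL level (-1.98, SE 0.27, edgeR adjusted p = 4.97e-04). Anxa2, a surface receptor for plasminogen and its activator, had -0.45 (edgeR adjusted p = 0.0801) and was called in 8 of the 16 fits with a library left out. Vwf, the von Willebrand factor gene, had -0.45 and did not pass (edgeR adjusted p = 0.335). Apod encodes apolipoprotein D, a small carrier of lipids, and read 64.4, 61.5, 63.05 and 53.3 CPM and 15.4, 13.7, 21.6 and 15.4 CPM (-1.89, SE 0.17, edgeR adjusted p = 4.47e-06). Apoe, the main apolipoprotein of the brain, made mostly by astrocytes, read 291, 358, 414 and 465 CPM and 239.8, 195, 269 and 257 CPM (-0.67, SE 0.15, edgeR adjusted p = 0.0297). The call of Apoe was lost without CTRL sham replicate 3 or 4. The summed astrocyte markers, 102 to 119 CPM in CTRL sham, were 79.8, 65.8, 133 and 92.9 CPM in YT-iKO sham replicates 1 to 4, and their part in the value of Apoe was not tested. Gja1 is itself 1 of these 10 markers and the only one called.

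Some of the steepest falls were in genes of no list. Spaar encodes a small lysosomal peptide that restrains the response of mTORC1 to amino acids. It read 59.2, 62.6, 63.05 and 59.4 CPM in CTRL sham and 15.4, 23.7, 22.9 and 24.9 CPM in YT-iKO sham (-1.50, SE 0.19, edgeR adjusted p = 2.23e-04). Hrct1 lies 1.4 kb from it on the same strand of chromosome 4 and fell with it (-1.69, edgeR adjusted p = 9.23e-04). Gm14066 and Ism1, which encodes the secreted protein isthmin 1, are 0.464 kb apart on opposite strands of chromosome 2, and both were lower, at -1.39 in the fit on all genes and -1.15 in the second. Scarf2, a scavenger receptor relative, read 13.02, 13.8, 12.7 and 16.6 CPM in CTRL sham and 3.71, 4.05, 4.47 and 3.95 CPM in YT-iKO sham in the fit on all genes (-1.80, SE 0.22, edgeR adjusted p = 3.15e-04). Ndnf, a secreted protein with fibronectin-like repeats, had -1.33, Kank4, of a family that binds talin, -1.09, and Tlcd3b, a ceramide synthase, -1.77. Tlcd3b is annotated over Aldoa, Edn1 over Gm47118, Lancl3 over Gm14862 and F5 over Gm16548, and whether counting kept these apart is not given in the sources used here. Cyp2e1, a cytochrome P450, had -1.44 with a wide spread (SE 0.40), and its call in the second fit held in 3 of the 16 fits with a library left out.

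Genes higher in YT-iKO were fewer and included neighbours of Pdgfb. Counting Pdgfb itself, 8 genes were tested within 100 kb of it on chromosome 15, and 0 of them were called in the fit on all genes. Of the 4 that were abundant, 2 were higher in the second fit, beside 0.394% of all abundant genes. Within 50 kb it was 1 of 2, and within 200 kb 2 of 6. Cbx7, a Polycomb protein, lies 24.8 kb from Pdgfb and read 79.8, 71.3, 100.3 and 91.7 CPM in CTRL sham and 211, 221, 187 and 180.1 CPM in YT-iKO sham (1.22, SE 0.11, edgeR adjusted p = 4.47e-06, and 0.115 in the fit on all genes). Apobec3, a cytidine deaminase gene that overlaps Cbx7 at its end on the other strand, had 0.59 (edgeR adjusted p = 0.077) and lies 80.0 kb from Pdgfb. Pdgfb itself had 0.13 (edgeR adjusted p = 0.531). Rpl3-ps1 is a processed pseudogene of the ribosomal protein gene Rpl3 and lies on the X chromosome, while Rpl3 lies 62.8 kb from Pdgfb. Rpl3-ps1 read 1.94, 3.96, 3.28 and 3.63 CPM and 16.2, 9.60, 15.4 and 19.1 CPM (2.23, SE 0.22, edgeR adjusted p = 1.30e-05), and Rpl3 had 0.03. Reads of a near-identical copy can be split between both, so the level of Rpl3-ps1 is uncertain. All CTRL sham values of Rpl3-ps1 were under the mean of 10 CPM that the second fit required. Higher values in other libraries thus carried it past that filter, which the fit on all genes, where it was called too, does not have. The promoter of Pdgfb drives the Cre transgene, which CTRL mice lack, so that effects of the transgene and of the deletion cannot be told apart in this design.

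The other higher genes were spread over several functions. Ppm1j, a protein phosphatase, read 2.49, 2.56, 1.87 and 2.60 CPM in CTRL sham and 5.21, 5.001, 7.26 and 5.80 CPM in YT-iKO sham in the fit on all genes (1.28, SE 0.26, edgeR adjusted p = 0.0717), a call that held in 7 of the 16 fits with a library left out. Il17ra, the receptor chain for interleukin 17, had a log2 fold change of 0.72 (edgeR adjusted p = 0.0373), Prodh, the first enzyme of proline breakdown, 0.80 (edgeR adjusted p = 0.00968), and Crip1, a small LIM protein, 0.71 (edgeR adjusted p = 0.0161). The highest fold change, of the small nucleolar RNA Snord15a, came from YT-iKO sham replicate 2, where it read 83.3 CPM against 5.72 to 8.10 CPM in the other 3 and 3.28 to 5.30 CPM in CTRL sham. It was called in 4 of the 16 fits with a library left out. All CTRL sham values of Snord15a were likewise under the mean of 10 CPM that the second fit required.

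Several functions showed no called gene after sham. None of 37 abundant interferon-stimulated genes, 9 genes of the cGAS-STING pathway, 18 of MHC class I presentation, 18 of the Notch pathway, 22 of glycolysis and hypoxia, 16 of cholesterol synthesis and uptake, or 73 cytosolic ribosomal proteins was called by edgeR. Their medians were -0.04, 0.08, -0.17, 0.04, -0.13, -0.20 and 0.02 in that order. A negative log2 fold change was held by 22, 2, 17, 8, 15, 14 and 33 of them in the same order. At an unadjusted p under 0.05, 1, 1, 4, 1, 2, 5 and 0 of them were lower in the same order, beside 644 of all 9132 abundant genes, and 3 Notch genes and 1 ribosomal protein gene were higher, beside 511. With 1 library left out, up to 2 Notch genes were called higher (2 without YT-iKO MCAo replicate 1), and 1 gene each was called lower in 1 fit for the interferon, MHC class I, glycolysis and cholesterol lists. Bst2, an interferon-induced tether of virus particles, had -0.67 (edgeR adjusted p = 0.196), and the Notch target Hey1 had 0.46 (edgeR adjusted p = 0.113). Of 14 genes of leukocyte adhesion and chemokines, 1 was lower, Cx3cl1 (-0.54, edgeR adjusted p = 0.0817), a call lost in 9 of the 16 fits with a library left out. In the same list Vcam1 had -0.04 and Icam1 0.18, both with overlapping groups, and 2 genes of the list were called without YT-iKO sham replicate 1. The largest log2 fold change of the list, 1.25 for Sele (SE 0.42, edgeR adjusted p = 0.196), did not pass. After MCAo Sele was called higher (1.40, edgeR adjusted p = 0.0423). Of 21 genes in the NF-kappaB and TNF list, 2 were lower and 1, Il17ra, was higher. The lower ones were Socs3, a brake on cytokine signals, and Il6st, the signal chain of interleukin 6 receptors (-1.11 and -0.55). Neither of these was called without any 1 of the 4 CTRL sham libraries or YT-iKO sham replicate 2.

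The same genotype difference was read in the 8 MCAo libraries, none of which entered the sham groups. They did enter the shared estimate of spread and the 10 CPM filter, so they also helped to choose the sham genes. A model of the sham libraries only gave 191 calls, 155 of them among the 223, and the shares below were not recomputed for it. There, 269 abundant genes were lower in YT-iKO, 2.95%, and 128 were higher, 1.4%. Of the 187 genes lower after sham, 146 were also called lower after MCAo, which is 78.1% of the sham list and 54.3% of the MCAo list. Of the 36 genes higher after sham, 22 were called higher after MCAo, 61.1% and 17.2% of the 2 lists, while 12 were higher without a call and 2 (Magix and ENSMUSG00000063897) had a negative log2 fold change. Among the others of the 187, 40 were lower without a call and 1, Socs3, had a log2 fold change of 0.01. The median log2 fold change of the 187 genes was -0.55 after sham and -0.54 after MCAo. Transporters followed this pattern with 12 of 31 lower after MCAo, Slc16a1 at -1.54, Slc38a5 at -1.19 and Slco1a4 at -0.80.

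**Figure D4:**
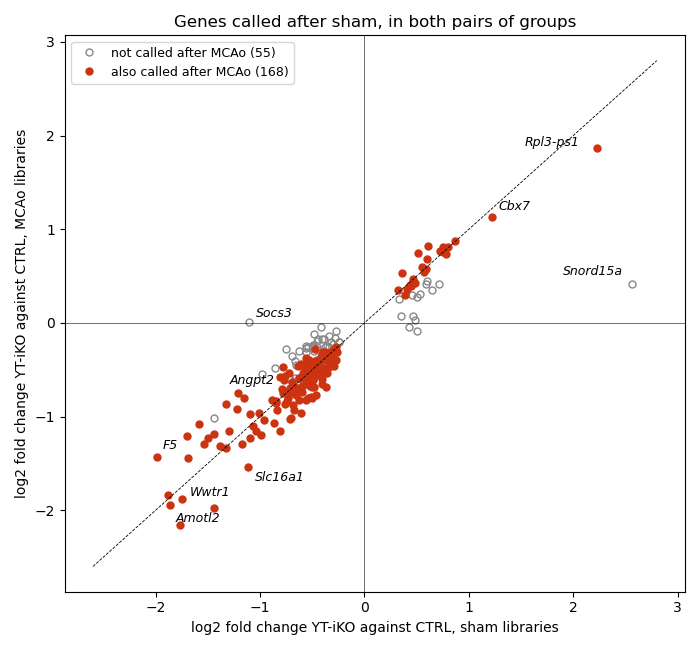
Log2 fold change of YT-iKO against CTRL for the 223 genes called after sham, in the sham libraries (x axis) and in the MCAo libraries (y axis), both from the second fit. Filled red dots are the 168 genes also called after MCAo, open dots the other 55, and the dashed line marks equal values.

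No gene was called for a difference between the genotype effects after sham and after MCAo, in the fit on all genes (116 genes at an unadjusted p under 0.05) or in the second fit (133 genes). On all genes, DESeq2 and limma-voom called none either. On abundant genes both called 1, Arhgap20. Its log2 fold change was -0.36 after sham and -1.61 after MCAo, with an edgeR adjusted p of 0.616 for the difference. Among genes called after sham, the differences of Socs3 (-1.12, unadjusted edgeR p across all genes = 0.012), Cp (-0.48, 0.0113) and Angpt2 (-0.47, 0.0318) did not pass the adjustment.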

How the data were processed

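RNA of sorted bECs was amplified with a SMART-Seq kit for low input and sequenced as paired ends in 16 libraries, 4 per group. The authors mapped the reads with STAR (2.7.8a) to GRCm38 and deposited raw counts per gene, with DESeq2 also named in their processing notes. The program that counted reads and its strand setting are not given in the sources used here. Groups came from the sample labels. The table held 37003 genes. Genes that passed filterByExpr (at least 10 counts in enough libraries, 15 in all) were fitted in edgeR 4.0.16 (R 4.3.3) with TMM factors, 1 mean per group over all 16 libraries and the quasi-likelihood test, and p-values were adjusted by Benjamini-Hochberg over all genes tested with a threshold of 0.1. The second fit took the genes whose mean over the 16 libraries reached 10 CPM. SE is that of the log2 fold change, and CPM values used the scaling factors of the fit named. Gene positions came from GENCODE M21 and promoters from RefSeq (GRCm38.p6). The procedure was tested on simulated counts, drawn with the sizes and spreads of the real libraries. These counts held no shift like that of the receptor reads in YT-iKO sham replicate 3. P-values measure the spread between pools of mice.

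Genes were named in part by a rule. It took Yap1 and Wwtr1, every gene called in the fit on all genes, neighbours of Pdgfb and defining members of a list. It also took up to 4 members of each list with the smallest p, but not every such member was described. Among those left out, Mmp25 (matrix proteases), Cdk6 (cell cycle) and Xiap (apoptosis) were lower in the second fit. Adam15 (matrix proteases) and Trib3 (ER stress) were higher, and Gas6 (coagulation, -0.38) did not pass. Other genes called only in the second fit were named after their values were seen. The comparison, the gene lists and the members named were chosen with earlier results of these data known. Alternatives were DESeq2 1.42.0, limma-voom (limma 3.58.1), other factors and filters, a replicate block and leaving out each library. The replicate numbers were not taken as pairs, since the labels do not tie equal numbers together and not every pair of equal numbers deviated together, although most did. A member of the actin list is not reported here.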

Additional observations from a re-analysis of the deposited data

Results flagged for a closer look

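The 46 genes examined, all named in the text, in CTRL sham and in YT-iKO sham, and 4 measures of the libraries made 100 groups of 4 libraries. In 9 of these groups, all of genes, a library lay far from the other 3 by Dixon's ratio of gap to range, where chance gives about 1 in 20 groups. In CTRL sham replicate 1 these were Amotl2 at 207 CPM, Slc16a4 at 117 CPM and Ccn2 at 16.3 CPM. In YT-iKO sham replicate 1 they were Ccn1 at 32.9 CPM and the early factor Fos at 101 CPM. In CTRL sham replicate 4 they were Plvap at 307 CPM and Igfbp5 at 137 CPM. Snord15a stood at 83.3 CPM in YT-iKO sham replicate 2, and Ppm1j at 1.87 CPM, on the scale of all genes, in CTRL sham replicate 3. Several of these genes were picked for display after their values were seen.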

How the results depend on the processing

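In the fit on all genes, 30 calls became 81 with DESeq2, 120 in a model of the sham libraries only and 143 with limma-voom, and each of these held all 30. Leaving out 1 library gave 15 to 40 calls, the lowest counts being 15 when YT-iKO sham replicate 4 was left out and 16, 19 and 18 for CTRL sham replicates 1, 2 and 3. In the second fit, 223 calls became 367 with DESeq2, which held 222 of them, and 144 at an adjusted p under 0.05. A model of the sham libraries only gave 191 calls, 155 of them among the 223, and limma-voom 274, with 210 among them. Leaving out 1 library gave 125 to 274 calls. Other factors, filters and the Xist covariate gave 27 to 41 and 186 to 219 calls in the 2 fits. The difference between sham and MCAo had 0 calls in each alternative on all genes, and on abundant genes 1 call with DESeq2 and 1 with limma-voom, and 0 to 1 with a library left out. Yap1 ran from -1.26 to -1.08 and Wwtr1 from -2.02 to -1.70 with 1 library left out. With a replicate block, 40 genes were called in the fit on all genes, 29 of them among the 30, and 269 in the second, 210 of them among the 223. Equal replicate numbers were not taken as pairs: of 4 sham pairs with the same number, 2 had correlated deviations above 0.1 (-0.205 to 0.456). Across the 4 groups, 19 of 24 such pairs were above 0.1, with a median of 0.250 against -0.130 for the 72 pairs of unequal numbers, a hint of shared deviations that the fits without a block do not use. No called gene changed direction in the fit in which it was followed under these alternatives. The cause of these changes was not tested. Pools of mice, 4 per group, and genes under 10 CPM limit what can be seen.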

Other observations

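Igfbp5, which encodes an IGF-binding protein, and Plvap, a component of endothelial diaphragms, were high in the same library. Igfbp5 read 3.01, 3.35, 3.87 and 137 CPM in CTRL sham and 2.27, 3.11, 9.74 and 5.28 CPM in YT-iKO sham. Plvap, given above, was also highest in CTRL sham replicate 4. Neither gene passed the test (edgeR adjusted p = 0.251 and 0.319). The pair was picked after its values were seen.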
